A study of Mus musculus with 18 samples.

Results

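Translation initiation and elongation factors are the proteins that load ribosomes onto mRNA and move them along it. Their genes were taken by symbol, as those beginning with Eif followed by a digit from 1 to 6, or with Eef. The rule left out the eIF2 kinases Eif2ak1 to Eif2ak4, Eif2s1, Eif2s3x, Eif2s3y, Eif4ebp1, Eif4ebp2, Eef1e1 and pseudogene symbols. It gave 55 of the 38924 genes listed, and 52 of them had enough counts to be tested. The other 3 stayed near 0. They were the oocyte-type cap-binding gene Eif4e1b, the eIF4E-binding protein gene Eif4ebp3, and Eif2c5, a long non-coding RNA on chromosome X whose symbol is an old one of the Argonaute family. The spinal cords came from mice of 8 weeks on the mixed background B6;CASTxB6.129, all with 1 allele of the RiboTag (Rpl+/-), in which Cre switches on a haemagglutinin-tagged ribosomal protein Rpl22. Antibody to the tag then brings down ribosomes with their mRNA, so each level below is ribosome-associated mRNA and not protein. Cre mice carried Cre at Chat, the gene for choline acetyltransferase (Chat+/-), and were Cre P278KY (P278KY+/-, n = 3) or Cre WT (n = 4). NoCre mice (Chat+/+) went through the same pulldown as controls without tagged ribosomes and were NoCre P278KY (P278KY+/-, n = 6) or NoCre WT (n = 5). P278KY is a dominant change in Gars, the glycyl-tRNA synthetase gene, and models an inherited motor neuropathy. Chat is active in every cholinergic cell of the cord, so the tag is not limited to motor neurons that reach muscle.

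Initiation begins when eIF2 brings the initiator tRNA to the small ribosomal subunit, where eIF1, eIF1A, eIF3 and eIF5 hold the scanning complex together, while eIF4F binds the mRNA cap and unwinds the leader. eIF2B recharges eIF2 with GTP, and this is the step that stress kinases such as the product of Eif2ak4 block when tRNA is not charged or ribosomes stall. In elongation eEF1A delivers each charged tRNA, eEF1B recharges eEF1A, eEF2 moves the ribosome on, and eIF5A helps it past difficult stretches. Neurons and muscle switch after birth from the eEF1A1 form of the tRNA carrier to eEF1A2, and mice without eEF1A2 lose motor neurons.

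Libraries held 8177758 to 24028649 counts, and the factor genes together took 5042 to 6534 CPM (counts scaled to library size with trimmed mean of M values, TMM, factors) in Cre libraries and 2711 to 3577 in NoCre libraries. Markers of the tagged cells were enriched as labelled. The summed level of 12 cholinergic motor neuron markers was 9372 to 33971 CPM in Cre libraries and 1117 to 5725 in NoCre libraries. Index sequences in the library descriptions were read as dividing the libraries into 2 pools. The pools are thus inferred, and whether they were separate sequencing runs is not given. Pool 1 held the 3 Cre P278KY libraries and replicates 1 and 2 of Cre WT. Replicates 3 and 4 of Cre WT came from pool 2 and stood apart. Their cholinergic sums were 16289 and 17457 CPM against 33971 and 32145 in the pool 1 pair, and their sums of 10 oligodendrocyte markers were 3813 and 4251 against 766.3 and 1206. The Cre P278KY libraries had cholinergic sums of 11454, 9372 and 13125 and oligodendrocyte sums of 716.3, 841.2 and 1798. Within pool 1, 9 of the 52 tested members had a difference between Cre genotypes of the other sign than in all 7 Cre libraries, and values within pool 1 are given below where a call or the size changed most. The labels give no sex. Xist was at least 40.1 CPM in Cre P278KY replicates 2 and 3 and in Cre WT replicates 3 and 4, and Ddx3y marked the other Cre libraries. Every WT library of pool 1 was marked by Ddx3y and every WT library of pool 2 by Xist. The same held for the NoCre P278KY libraries, so pool and sex cannot be told apart in these groups. Within pool 1 the Cre WT libraries were all marked by Ddx3y, but Cre P278KY replicates 2 and 3 by Xist. The comparison of Cre genotypes within pool 1 is thus partly mixed with sex.

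Factor mRNAs had higher TMM-scaled levels in the pulldown of tagged ribosomes than in the control pulldown in both genotypes. In WT mice 38 of the 52 tested members were higher in Cre (28.5% of all 17133 genes tested were) and 2 were lower (31.2% of all genes), with a median log2 fold change of 1.16 against −0.12 over all genes. In P278KY mice 39 were higher in Cre (28.2% of all genes) and 0 were lower (31.2%), with a median of 1.18 against −0.13. In either direction edgeR called 59.7% of all genes in WT and 59.4% in P278KY mice. Without overlap between groups, 34 members were higher in Cre WT than in NoCre WT (22.5% of all genes) and 2 were lower (20.7%). In P278KY mice 40 were higher in Cre without overlap (28.3% of all genes) and 0 were lower (27.9%). These pairs of groups share no library. DESeq2 called 37 higher and 1 lower in P278KY mice, and 62.5% of all genes in either direction. Mitochondrial rRNA took 1.36% to 4.88% of counts in Cre and 24.2% to 53.8% in NoCre libraries. With scaling by library size without it, 25 members were called in WT (22 higher, 3 lower, 49.6% of all genes) and 21 in P278KY mice (21 higher, 0 lower, 49.5%). The medians were then 0.73 against −0.51 over all genes in WT and 0.70 against −0.55 in P278KY mice. Within pool 1 the WT comparison gave 42 called members (57.9% of all genes) and a median of 1.54. Within pool 2, with 2 Cre and 3 NoCre libraries, it gave 21 (29.7% of all genes) and a median of 0.77. The difference between the pools was not tested. Pool 1 added Eef1d (0.96, adjusted p = 0.00665), Eefsec (1.22, 0.034) and Eif2b4 (2.59, 6.96e-06) to the calls in WT and lost Eif5 (0.47, 0.0944). In P278KY mice it added Eef2k (0.87, 0.00691) and Eif3a (0.63, 0.0231). The largest rises in WT were those of Eif5a (log2 fold change 2.28), Eef1a2 (2.27), Eif1b (2.13), Eif3k (1.85), Eif1a (1.75) and Eif3m (1.72). In P278KY mice they were those of Eef1a2 (2.39), Eif1b (2.25), Eif3c (2.2), Eif3k (2.15), Eif5a (2.12) and Eif3l (1.88). The 2 that fell in WT were Eef1a1 (−0.76) and Eif4e3 (−1.05). These comparisons are of bulk pulldowns, in which fewer cells of a type and less RNA per cell cannot be told apart.

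**Figure D1:**
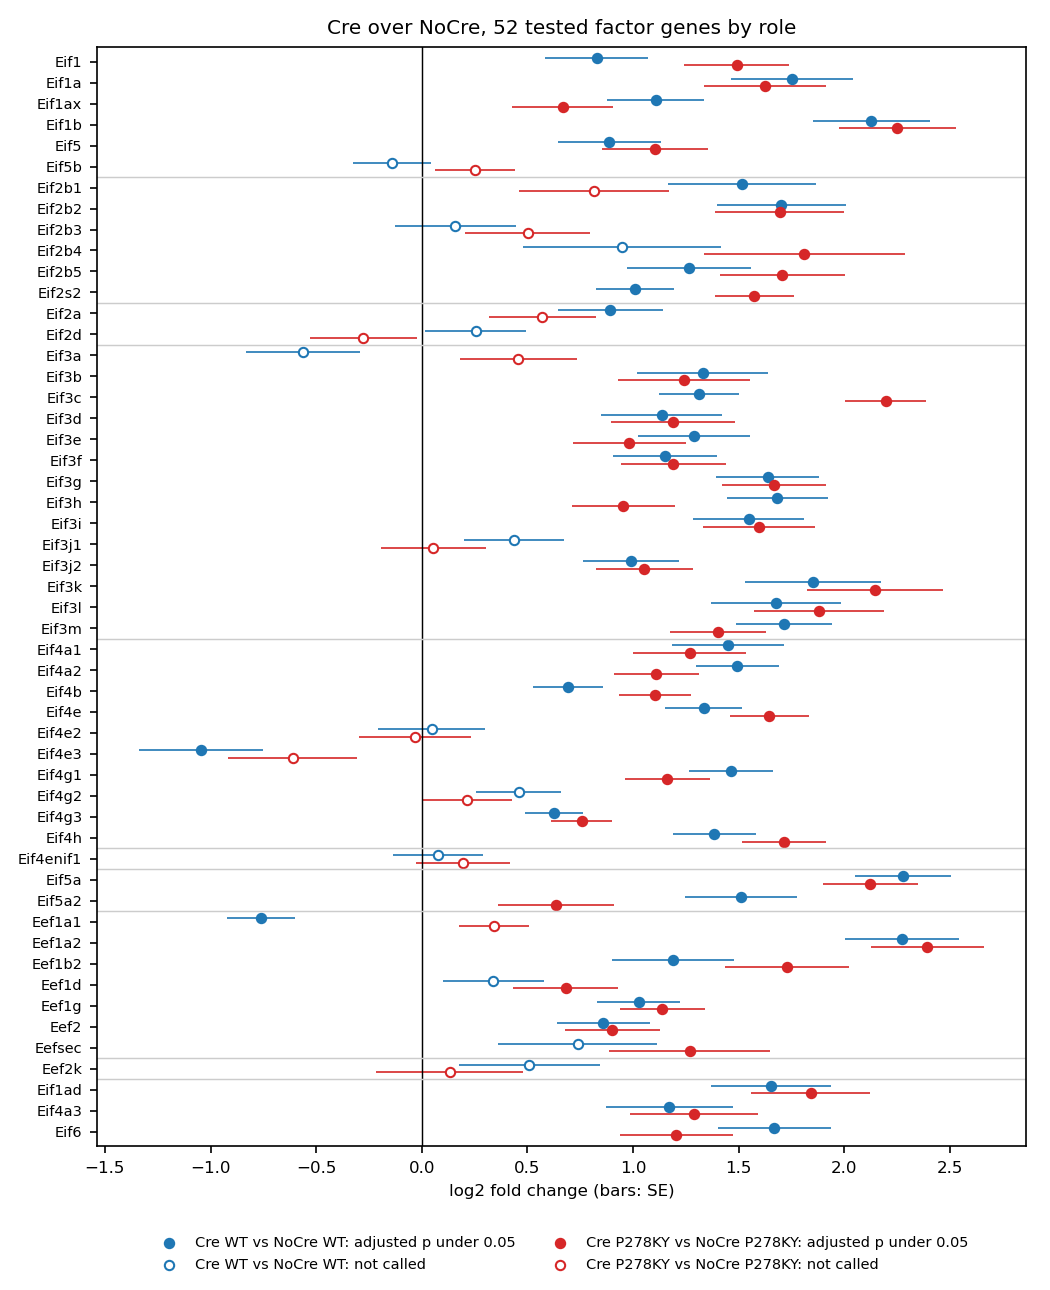
Log2 fold change of Cre over NoCre libraries for the 52 tested factor genes, grouped by role between grey lines, in WT mice (blue) and P278KY mice (red). Points are edgeR estimates, bars are SE and filled points have an adjusted p under 0.05. Most points lie above 0, and Eef1a1 and Eif4e3 are the filled points below it.

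Between genotypes in the Cre libraries, 1 member passed the test, against 2.32% of all genes. It was Eef1a1, which was higher in Cre P278KY, where 1.22% of the 14717 genes tested were called higher. No member was called lower (1.11% of all genes). The median member had a log2 fold change of −0.01, as did the median of all genes, and 26 members had a value above 0 and 26 below it. By the edgeR test 6 of the 52 members had an unadjusted p under 0.05, where 16.2% of all genes did. DESeq2 called 3 members (6.6% of all genes) and voom 2 (2.21%). The groups did not overlap for 3 members, Eef1a1, Eif3c and Eif2s2, each higher in Cre P278KY (8.2% of all genes), and for 0 members that were lower (8.45%).

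**Figure D2:**
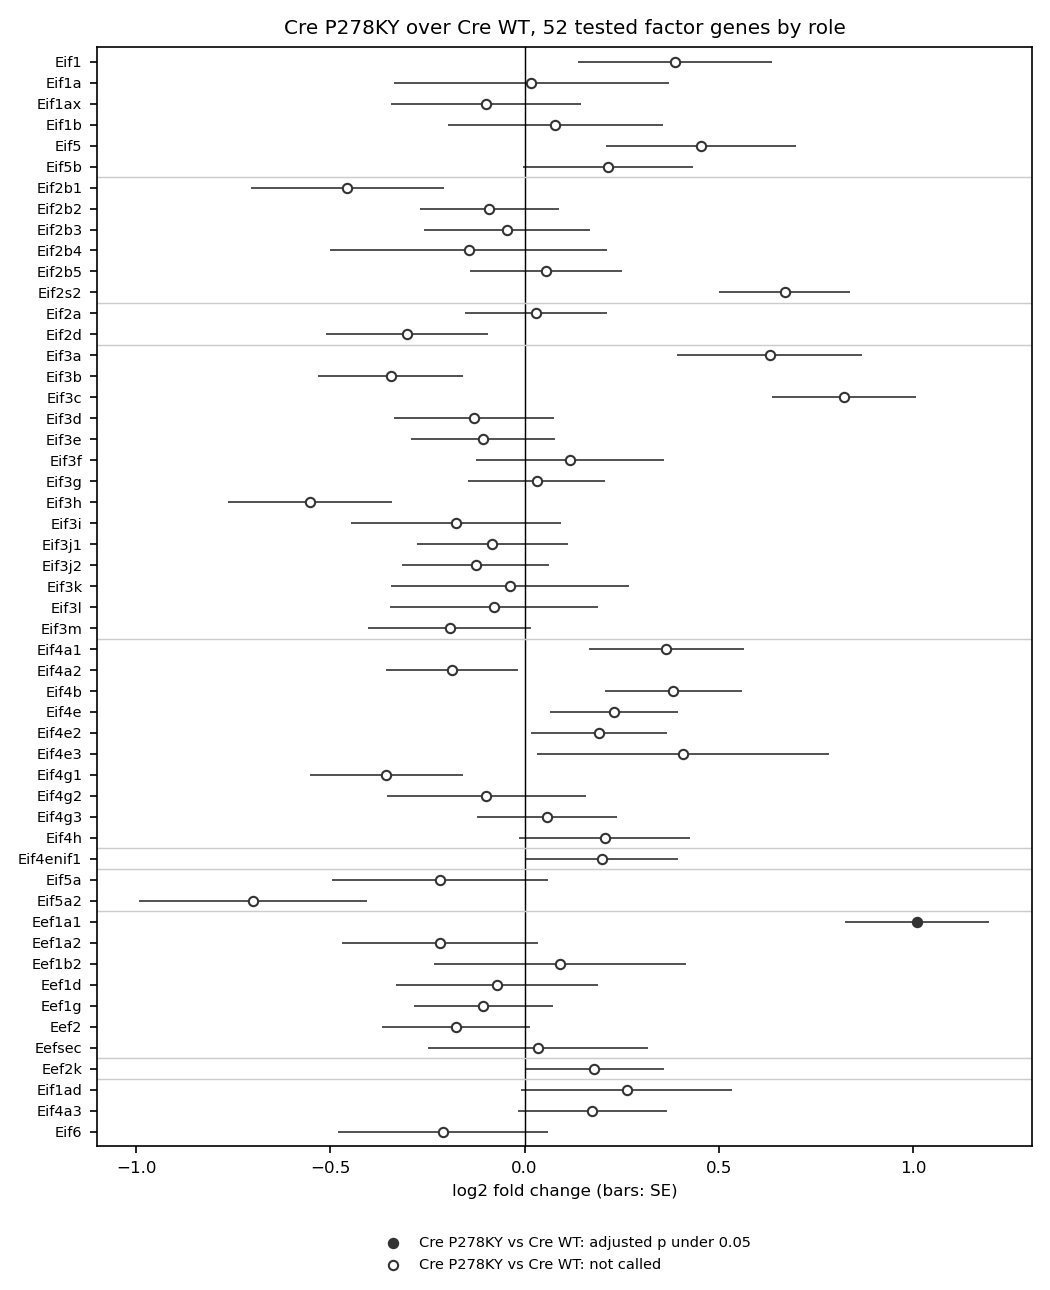
Log2 fold change of Cre P278KY over Cre WT for the 52 tested factor genes by role, with SE bars. The filled point is Eef1a1 at 1.01, the sole member with an adjusted p under 0.05 in edgeR, and the open points lie on both sides of 0.

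eEF1A1 and eEF1A2 are near-identical carriers of charged tRNA made by separate genes, and Eef1a1 was the member called between Cre genotypes. Eef1a1 (ENSMUSG00000037742) lies on chromosome 9 from 78478449 to 78489151 on the minus strand of GRCm38 (GENCODE M21), and Eef1a2 (ENSMUSG00000016349) on chromosome 2 from 181147653 to 181157014 on the minus strand. Below are the 250 bases before each start site, from RefSeq on GRCm38.p6, 5′ to 3′ on the strand of the gene. They are shown because in WT mice the mRNAs of this pair went opposite ways between Cre and control pulldowns. Capitals mark the GC box GGGCGG, here on the other strand. The Eef1a1 window is at chr9:78481725-78481974 and the Eef1a2 window at chr2:181157016-181157265.
Eef1a1: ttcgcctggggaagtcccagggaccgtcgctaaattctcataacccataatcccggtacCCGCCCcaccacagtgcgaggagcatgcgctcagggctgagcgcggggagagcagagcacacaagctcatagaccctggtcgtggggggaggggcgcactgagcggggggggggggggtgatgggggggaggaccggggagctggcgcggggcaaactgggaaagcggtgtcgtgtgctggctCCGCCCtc
Eef1a2: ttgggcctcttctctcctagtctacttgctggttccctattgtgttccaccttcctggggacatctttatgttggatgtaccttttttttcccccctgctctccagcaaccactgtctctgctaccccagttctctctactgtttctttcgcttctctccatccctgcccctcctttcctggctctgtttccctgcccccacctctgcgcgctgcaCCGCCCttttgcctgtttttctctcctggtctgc

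The Eef1a1 window held GC boxes 191 and 8 bases before the start and 68.0% G and C, and the Eef1a2 window held 1, 34 bases before the start, and 54.0%. The median G and C content of all 32851 RefSeq promoters was 52.4%. Of the 55 members 42 had a promoter in that table, and the GC box occurred on either strand in 30 of them (71.4%) against 32.7% of all promoters. Here and below members were counted once per gene, and the share of all counts each promoter, also those of genes not tested. TATAAA was in 3 member windows, those of Eef2, Eif3b and Eif3f (7.14%), against 12.4% of all. The cAMP response element TGACGTCA was in 0 of the 42 windows (1.55% of all), and TGATGNAA, the core of the element that binds C/EBP and ATF4 together, was in that of Eef2k alone (3.45% of all). A run of 5 pyrimidines that begins with C at the annotated start, the mark of TOP mRNAs, was found for 2 members, Eif2c5 and Eif3f (4.76%, against 2.51% of all). The match needed the C at the first annotated base, so a start annotated slightly off would hide a tract. Members without a match, Eef1a1 and Eef2 among them, are therefore not shown to lack one. None of these motifs overlaps another in the windows printed, and a match is only a match of letters.

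Eef1a1 measured 376, 335 and 379 CPM in the 3 Cre P278KY libraries and 153, 198, 167 and 215 in the 4 Cre WT libraries. Every Cre P278KY value lay above every Cre WT value, as it did for 8.2% of all genes. The means were 363 ± 25.0 (SD, n = 3) and 183 ± 28.2 (SD, n = 4), a log2 fold change of 1.01 ± 0.186 (SE) or 2.01-fold (adjusted p = 0.0214, edgeR quasi-likelihood test). NoCre WT libraries gave 288, 319, 272, 303 and 368 CPM, and NoCre P278KY libraries ran from 243 over a median of 289 to 330. In CPM Cre WT was thus the lowest group, with no overlap with NoCre WT, as for 20.7% of all genes in that direction (log2 fold change −0.76 ± 0.160, adjusted p = 0.000387). Cre P278KY lay above all NoCre P278KY values, as for 28.3% of all genes, with a log2 fold change of 0.34 that did not pass (adjusted p = 0.0767). The genotype difference was itself different between Cre and NoCre libraries (interaction 1.10 ± 0.228, adjusted p = 0.0208; 1 of 52 members was called higher and 0 lower, against 0.344% and 0.309% of all genes, or 0.654% in both directions).

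Several values bear on how firmly this stands. Within pool 1, without the pair of Cre WT libraries that stood apart, the log2 fold change of Eef1a1 was 1.13 (adjusted p = 0.00653) and the interaction 1.14 (0.0328). Of the 18 alternatives run, 12 kept the call, with values from 0.93 to 1.13 over all 18. It was lost without Cre P278KY replicate 1 (adjusted p = 0.15), 2 (0.0816) or 3 (0.0968), without Cre WT replicate 1 (0.0528), and with scaling by library size with and without mitochondrial rRNA (0.143 and 0.12). The interaction lost its call in 7 of 29 alternatives, those 2 scalings (0.844 and 0.484), no low-count filter (0.087), the omission of replicate 3 of Cre WT (0.0559), and that of any 1 of the 3 Cre P278KY libraries (0.0958, 0.0519 and 0.0744). The fall over controls in WT was lost with library size alone (−0.42, adjusted p = 0.31) and within pool 2 (−0.73, 0.0509). Summed markers of other cells were also compared. The astrocyte sums of 10 markers were 546.3, 576.6 and 1002 CPM in Cre P278KY against 431.8 and 638.2 in the pool 1 pair of Cre WT and 1437 and 1177 in the pool 2 pair. Vascular sums were 30.7, 33.4 and 66.5 against 32.9 and 39.7 in pool 1 and 139 and 168 in pool 2, so the highest Cre P278KY value of both lists lay above the pool 1 pair and below the pool 2 pair. Skeletal muscle sums were 14.4, 8.08 and 7.75 against 26.6 to 143 in Cre WT, while microglial sums of 28.8 to 44.5 overlapped those of 24.1 to 38.8. All 10 oligodendrocyte markers had a value below 0 (median −1.53). By edgeR 0 of them were called, with 6 at an unadjusted p under 0.05 (16.2% of all genes). DESeq2 called 2 of these markers lower (6.6% of all genes in either direction) and voom 0 (2.21%). The cholinergic sums given above did not overlap between the genotypes and were lower in Cre P278KY. Of the 12 markers 1 fell by edgeR (1.11% of all genes), 3 by DESeq2 and 2 by voom (6.6% and 2.21% in either direction). The edgeR call was Chodl (log2 fold change −2.53, adjusted p = 0.0032), and Chat did not pass (−0.17, adjusted p = 0.811). Most of the sum was Nefm (7019 against 18275 CPM as group means) and Nefh (2377 against 4089), neurofilament genes that did not pass in edgeR, and 5 of the 12 markers had a log2 fold change above 0, among them Slc5a7 (0.46) and Isl1 (0.66). The part of these lower sums in the Eef1a1 result was not tested. The single Cre P278KY library marked by Ddx3y (replicate 1) had 376 CPM against 153 and 198 in the Cre WT libraries so marked. The RSEM count of Eef1a1 was not a whole number in 17 of 18 libraries, as happens when RSEM divides reads between a gene and others.

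Eef1a2 did not pass the test between Cre genotypes. It measured 199, 202 and 285 CPM in Cre P278KY, and 310, 388, 205 and 187 in Cre WT, where the pool 1 pair was high and the pool 2 pair low. The groups overlapped (log2 fold change −0.22 ± 0.252, adjusted p = 0.734), and within pool 1 the value was −0.54 (adjusted p = 0.132). Both Cre groups lay far above the controls, which held 40.5, 36.7, 72.2, 60.4 and 72.1 CPM in NoCre WT and 21.6 to 54.1 (median 45) in NoCre P278KY. Cre over NoCre was 4.84-fold in WT and 5.25-fold in P278KY mice (adjusted p = 4.38e-07 and 2.53e-07).

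The ratio of the pair within a library does not depend on scaling between libraries. From TPM, the deposited level per transcript length, Eef1a2 made up 28.3%, 31.2% and 33.7% of the pair in Cre P278KY and 56.4%, 57.4%, 50.6% and 37.1% in Cre WT. No value of one group reached the other. The means were 31.1% ± 2.67 (SD, n = 3) and 50.4% ± 9.33 (SD, n = 4), 19.3 points apart (exact two-sided permutation p = 0.0571, the smallest that 3 against 4 allows, and 0.152 adjusted over 16 share tests). In NoCre libraries the share was 10.8% ± 3.22 (SD, n = 5) in WT and 9.46% ± 3.04 (SD, n = 6) in P278KY mice. Both Cre groups exceeded their own controls without overlap (exact permutation p = 0.0159 in WT and 0.0238 in P278KY mice, again the smallest possible, each 0.0762 after adjustment). The levels behind these shares were 194 ± 73.6 TPM of Eef1a1 and 188 ± 34.5 of Eef1a2 in Cre WT (SD, n = 4), and 374 ± 58.5 and 168 ± 25.6 in Cre P278KY (SD, n = 3).

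**Figure D3:**
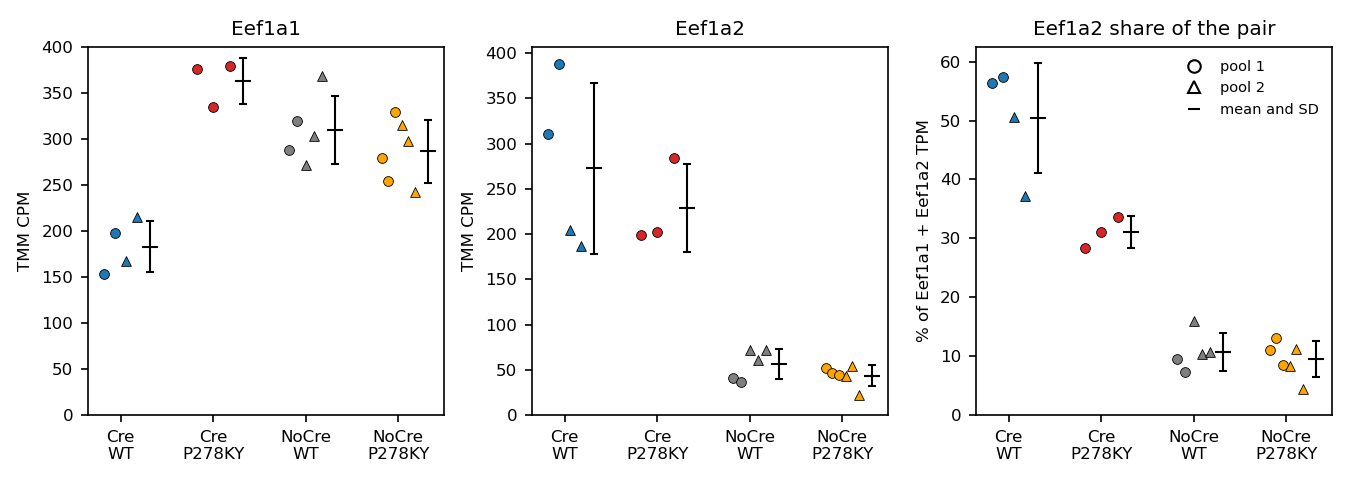
Eef1a1 and Eef1a2 levels (TMM CPM) and the Eef1a2 share of their summed TPM (%), 1 point per library, with circles for pool 1, triangles for pool 2 and bars for mean and SD. Eef1a1 is lowest in Cre WT (153 to 215 CPM), while the Eef1a2 share falls from Cre WT (37.1% to 57.4%) over Cre P278KY (28.3% to 33.7%) to the NoCre groups.

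None of the other 5 elongation factor genes passed between Cre genotypes. Eef1b2, Eef1d and Eef1g encode the exchange factor eEF1B, which recharges eEF1A. Their log2 fold changes between genotypes were 0.09, −0.07 and −0.11, with adjusted p of 0.828 or more, and −0.35, −0.38 and −0.28 within pool 1. Eef1g had 161, 160 and 165 CPM in Cre P278KY against 210, 205, 163 and 137 in Cre WT. Eef2, the translocase, measured 462, 444 and 494 CPM against 553, 722, 440 and 448 (log2 fold change −0.18, adjusted p = 0.709), overlapping groups in which Cre WT replicate 2 was the highest. Its kinase gene Eef2k, whose product slows elongation, had 15.5, 17.6 and 17.9 CPM against 14.7, 16.4, 15.8 and 14.3 (0.18, adjusted p = 0.683). Eefsec, the carrier of selenocysteine tRNA, gave 5.26 ± 1.12 (SD, n = 3) and 5.25 ± 0.909 CPM (SD, n = 4). Over their controls 4 of the 7 elongation factor genes rose in WT (28.5% of all genes), Eef1a2, Eef1b2 (1.19), Eef1g (1.03) and Eef2 (0.86). In P278KY mice 6 of 7 rose (28.2% of all genes). By edgeR Eef2k was not called in either genotype (0.51 and 0.13), though it was in 2 of 19 alternatives in P278KY mice, one of them pool 1 given above.

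eIF5A carries the modified residue hypusine and relieves stalled ribosomes. Eif5a had the largest rise of all members over the control pulldown in WT mice, from 54.1, 40.7, 46.0, 65.0 and 70.0 CPM in NoCre WT to 353, 342, 148 and 228 in Cre WT (4.85-fold, adjusted p = 4.2e-08). The Cre P278KY libraries had 232, 192 and 250 CPM, inside the Cre WT range (log2 fold change −0.22, adjusted p = 0.766). Its paralog Eif5a2 measured 98.1, 94.3 and 92.5 CPM in Cre P278KY against 198, 81.7, 175 and 168 in Cre WT. The 3 mutant libraries lay close together, and Cre WT replicate 2 lay below them. The log2 fold change was −0.70 ± 0.292 (SE), the lowest of all members, and did not pass (adjusted p = 0.279). It passed in 2 of 18 alternatives, among them that without Cre WT replicate 2 (−0.93, adjusted p = 0.0151). Within pool 1 it was −0.50 (adjusted p = 0.382).

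The scanning factors eIF1 and eIF1A set how strictly the start codon is chosen, and eIF5 and eIF5B let the complex settle there and join the large subunit. Of their 6 genes 5 rose over controls in each genotype (28.5% of all genes in WT and 28.2% in P278KY mice). Between Cre genotypes 0 were called by edgeR, DESeq2 or voom. By edgeR 0 had an unadjusted p under 0.05 (16.2% of all genes). Eif1 had 182, 148 and 228 CPM in Cre P278KY against 166, 203, 97.7 and 116 in Cre WT (log2 fold change 0.39, adjusted p = 0.495, and 0.08 within pool 1), and Cre WT was low in its pool 2 libraries. Eif1b, a close paralog of Eif1, rose 4.37-fold over controls in WT and 4.76-fold in P278KY mice, with 107 ± 39.0 CPM (SD, n = 4) in Cre WT and 24.5 ± 4.83 (SD, n = 5) in NoCre WT. Its levels in Cre P278KY were 110, 85.0 and 136 CPM (log2 fold change between genotypes 0.08, adjusted p = 0.929, and −0.27 within pool 1). The lowest value of the group was that of Eif1ax, the X-linked eIF1A gene (−0.10), and the highest that of Eif5 (0.45, adjusted p = 0.407), with 263, 331 and 236 CPM against 209, 149, 281 and 183. Eif5b was not called over controls in either genotype (log2 fold change −0.14 in WT and 0.25 in P278KY mice).

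eIF2 and its exchange factor eIF2B are where the stress response acts on translation. Eif2s2, the beta subunit of eIF2 (chromosome 2, 154871410 to 154892935), measured 119, 117 and 141 CPM in Cre P278KY against 86.0, 95.7, 69.5 and 71.1 in Cre WT. The groups did not overlap, and the log2 fold change of 0.67 ± 0.169 (SE) missed the threshold (adjusted p = 0.0771, and 0.0991 within pool 1). DESeq2 called it (0.66, adjusted p = 0.0122). The 5 eIF2B genes had values from −0.46 for Eif2b1, with 11.7, 15.3 and 11.3 CPM against 15.1, 24.0, 20.5 and 12.5, to 0.05 for Eif2b5, with 39.3 ± 2.99 (SD, n = 3) against 38.8 ± 8.77 CPM (SD, n = 4). None of the 5 was called, and Eif2b2 (−0.09), Eif2b3 (−0.05) and Eif2b4 (−0.14) lay between these values. Over controls 4 of the 6 genes of eIF2 and eIF2B rose in each genotype (28.5% of all genes in WT and 28.2% in P278KY mice). Eif2b2 rose 3.26-fold and 3.24-fold in WT and P278KY mice, while Eif2b3 was not called in either (1.12-fold and 1.42-fold). Eif2a and Eif2d, which can place initiator tRNA without eIF2, gave log2 fold changes between Cre genotypes of 0.03 and −0.30, and Eif2a rose over controls in WT (0.89, adjusted p = 0.00386).

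eIF3 is the largest initiation factor, a scaffold on the small subunit, and 14 genes named for its subunits were tested. Over controls 12 of them rose in WT (28.5% of all genes) and 12 in P278KY mice (28.2%). The exceptions in both were Eif3a, the core subunit, and Eif3j1, a loosely bound one. Eif3a had values of −0.56 in WT (adjusted p = 0.0752, and 0.22 within pool 1) and 0.46 in P278KY mice (0.156). Between Cre genotypes edgeR called 0 of the 14, with 3 at an unadjusted p under 0.05 (16.2% of all genes). DESeq2 and voom each called 1 (6.6% and 2.21% of all genes). Of the 14, 10 had a value below 0, with a median of −0.09. Eif3c, a core subunit (chromosome 7, 126546455 to 126566411), came nearest. It measured 341, 398 and 423 CPM in Cre P278KY against 242, 283, 185 and 187 in Cre WT, and 66.8 to 121 in NoCre WT. Every Cre P278KY value was above every Cre WT value, and the log2 fold change of 0.82 ± 0.185 (SE, 1.77-fold) had an adjusted p of 0.0512. It passed in 7 of 18 alternatives, among them DESeq2 (adjusted p = 0.00348) and voom (0.0452). Within pool 1 it was 0.64 (adjusted p = 0.0609). Its RSEM count was not whole in 17 of 18 libraries.

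At the other end of eIF3 was Eif3h, an outer subunit, with 45.8, 51.9 and 48.2 CPM in Cre P278KY against 76.7, 98.0, 69.7 and 49.2 in Cre WT. Cre WT replicate 4 lay among the mutant values, and the log2 fold change of −0.55 did not pass (adjusted p = 0.232). Within pool 1 it did (−0.77, adjusted p = 0.0299). Subunit mRNAs differed widely in level per length although the complex holds 1 copy of most subunits. In Cre WT they ran from 9.43 ± 4.52 TPM for Eif3j1 and 15.1 ± 5.14 for Eif3b to 159 ± 14.4 for Eif3k (SD, n = 4). In Cre P278KY Eif3c had the highest mean of the subunits (175 ± 48.9 TPM, SD, n = 3) beside Eif3k (165 ± 9.12), and these neighbours did not differ beyond their spread. Eif3j1 and Eif3j2 are near-identical, and neither had whole counts in any of the 18 libraries, so their separate values are uncertain.

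**Figure D4:**
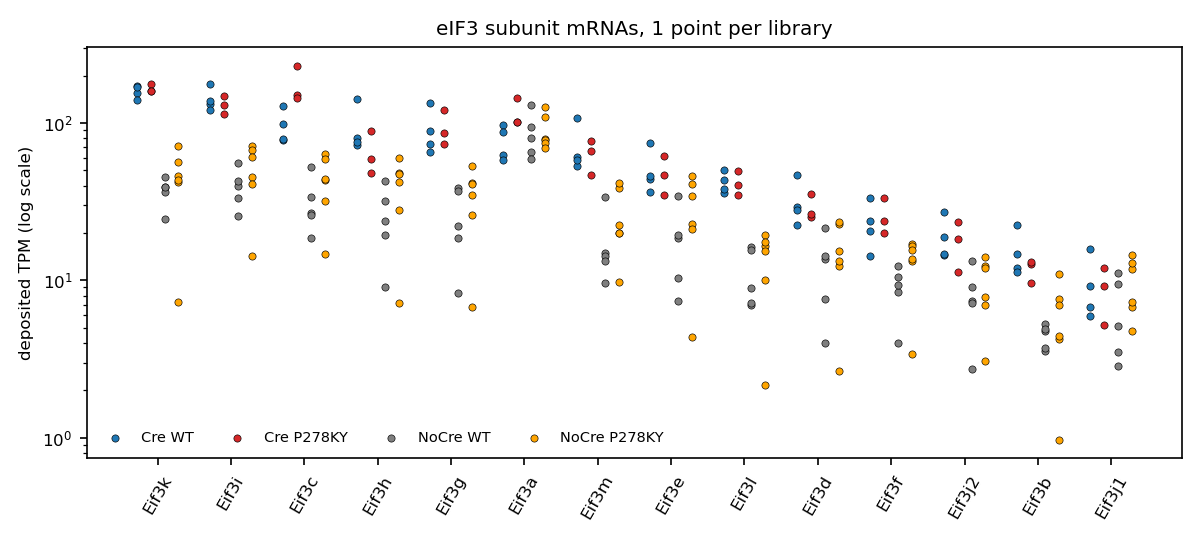
Deposited TPM of the 14 eIF3 subunit genes on a log axis, 1 point per library and 1 colour per group, ordered by mean level in Cre WT. Eif3c in Cre P278KY (red, mean 175 TPM) lies above its Cre WT points (blue, mean 96.0 TPM), and the highest NoCre point (grey or orange) reaches the lowest Cre point for 8 of the 14 genes, Eif3a among them.

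eIF4F joins the cap-binding protein eIF4E, the helicase eIF4A and the scaffold eIF4G. Of the 10 tested genes of eIF4F and its helpers 7 rose over controls in each genotype (28.5% of all genes in WT, 28.2% in P278KY mice). Eif4e measured 113, 106 and 104 CPM in Cre P278KY and 107, 97.7, 85.8 and 83.3 in Cre WT (log2 fold change 0.23, adjusted p = 0.541), against 37.1 ± 4.63 (SD, n = 5) in NoCre WT. Eif4e2, a cap-binding repressor, was not called over controls (0.05 in WT and −0.03 in P278KY mice). Eif4e3, an atypical cap binder, fell in WT mice. It had 9.09, 3.88, 8.62 and 9.81 CPM in Cre WT against 19.4, 20.4, 12, 10.8 and 18.7 in NoCre WT (log2 fold change −1.05 ± 0.292, adjusted p = 0.00408). Within pool 2 the call was not made (−0.60, adjusted p = 0.24), nor in P278KY mice (−0.61, adjusted p = 0.089). Its exons overlap those of Gm20696 on the same strand, so its reads are not its own with certainty.

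The helicase genes differed in level. Eif4a2, the form abundant in brain, measured 378, 363 and 360 CPM in Cre P278KY against 503, 435, 411 and 358 in Cre WT (log2 fold change −0.19, adjusted p = 0.646). Eif4a1 had 77.6, 83.6 and 81.8 CPM against 59.5, 91.7, 54.1 and 53.1 (0.36, adjusted p = 0.416). Of the scaffolds, Eif4g1 had 167, 148 and 142 CPM against 232, 246, 163 and 161 (−0.36, adjusted p = 0.419), with Cre WT high in pool 1, and it rose over controls in both genotypes (1.46 and 1.16). Eif4g2, which drives cap-independent initiation, gave 399, 482 and 308 CPM against 405, 309, 572 and 436 and was not called over controls by edgeR (0.46 in WT, adjusted p = 0.0518, and 0.22 in P278KY mice), though 5 of 21 alternatives called it in WT. Eif4g3 had 254 ± 30.6 (SD, n = 3) and 248 ± 18.6 CPM (SD, n = 4). The helper genes Eif4b and Eif4h, which stimulate eIF4A, had values of 0.38 and 0.21 between genotypes and rose over controls in both. Eif4enif1, which carries eIF4E into the nucleus, did not pass in any comparison (0.20 between Cre genotypes).

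The 3 members outside these complexes rose over controls in both genotypes (28.5% of all genes in WT and 28.2% in P278KY mice). They were Eif4a3, a helicase of the exon junction complex (1.17 in WT and 1.29 in P278KY mice), Eif6, which keeps ribosomal subunits apart (1.67 and 1.2), and Eif1ad, named for its eIF1A-like domain (1.65 and 1.84). Between Cre genotypes their values were 0.17, −0.21 and 0.26, and none passed. Within pool 1 Eif6 had −0.59 and Eif1ad −0.12.

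Other paralog pairs were compared in the same way as Eef1a1 and Eef1a2. Eif1b took 37.4% ± 4.20 (SD, n = 4) of Eif1 and Eif1b TPM in Cre WT and 18.8% ± 4.96 (SD, n = 5) in NoCre WT, without overlap (exact permutation p = 0.0159, adjusted 0.0762). In Cre P278KY it took 31.2% ± 3.14 (SD, n = 3), and it overlapped Cre WT (exact permutation p = 0.114). Eif5a2 took less of its pair in Cre P278KY (7.62% ± 0.947, SD, n = 3) than in NoCre P278KY (19% ± 3.38, SD, n = 6), without overlap (exact permutation p = 0.0238, adjusted 0.0762). Eif4a2 took 77.7% to 82.3% of its pair as the mean of each of the 4 groups, and no exact permutation p was under 0.152. No share of any pair passed after adjustment. RSEM counts were not whole in 17 of 18 libraries for Eef1a1, 16 for Eif1 and Eif4a1, 15 for Eif4a2 and 2 for Eif5a. For Eef1a2, Eif1b and Eif5a2 the number was 0. The part of reads divided between genes in these shares was not tested.

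**Figure D5:**
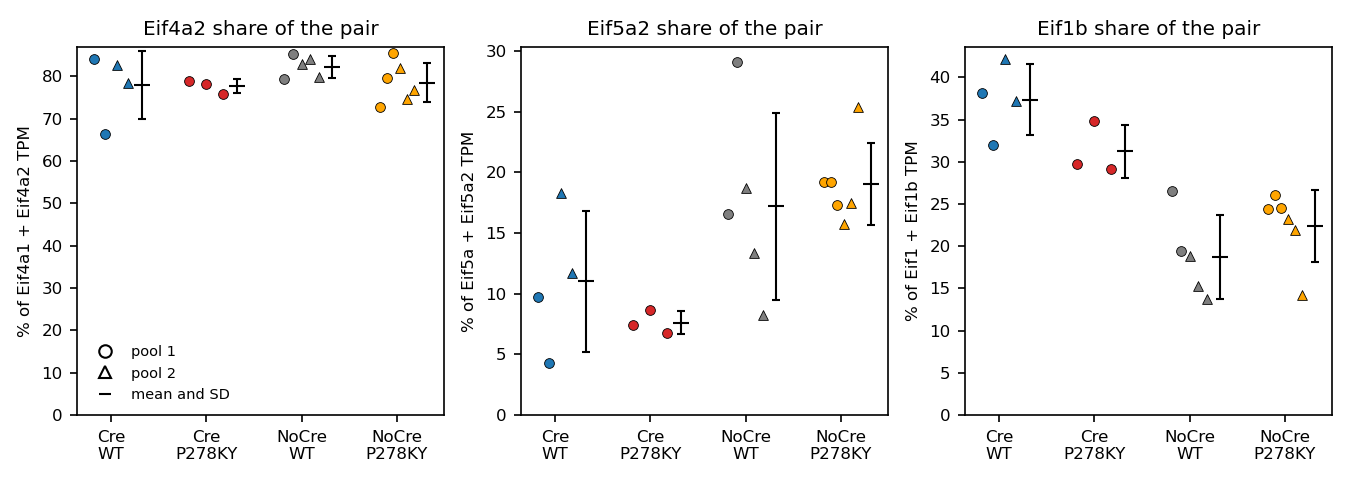
Share of Eif4a2, Eif5a2 and Eif1b in the summed TPM of each paralog pair (%), 1 point per library, with circles for pool 1, triangles for pool 2 and bars for mean and SD. The Eif4a2 points of the 4 groups overlap (means 77.7% to 82.3%), and Eif1b is above both control groups in the Cre libraries.

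Neighbouring steps of translation were described by lists of other genes. The 9 termination and recycling factor genes all rose over controls in WT (28.5% of all genes) and 8 of 9 in P278KY mice (28.2%). Between Cre genotypes edgeR called 0 of the 9, with 1 at an unadjusted p under 0.05 (16.2% of all genes). DESeq2 and voom also called 0. Their largest value between genotypes was that of Etf1, the factor that reads stop codons (0.43, adjusted p = 0.261). Of 12 genes for poly(A)-binding and cap-regulating proteins, 1 rose in Cre P278KY by edgeR, 2 by DESeq2 and 1 by voom. Of all genes 1.22% were called higher by edgeR, and 6.6% by DESeq2 and 2.21% by voom in either direction. The gene called by edgeR was Mknk1, a kinase of eIF4E, with 18.1 ± 1.68 CPM (SD, n = 3) against 9.01 ± 1.66 (SD, n = 4) and a log2 fold change of 1.04 (adjusted p = 0.028). Paip1, which bridges poly(A)-binding protein and eIF4F, had 0.81 (adjusted p = 0.0515). Over controls 8 of these 12 rose in WT (28.5% of all genes) and 10 in P278KY mice (28.2%). Pabpc1, the main poly(A)-binding protein gene, was not called (0.05 in both).

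Of 9 genes for hypusine and diphthamide enzymes, which modify eIF5A and eEF2, 1 fell in Cre P278KY by edgeR (1.11% of all genes). Dph1 had 0.767 ± 0.0858 CPM (SD, n = 3) against 3.23 ± 1.44 (SD, n = 4), a low level (log2 fold change −2.0, adjusted p = 0.0491). DESeq2 called 1 of the 9 higher and 1 lower (6.6% of all genes in either direction), and voom called 0 (2.21%). Dohh, the last enzyme of hypusine synthesis, rose over controls in both genotypes (2.42 and 2.57), and Dph5 fell in both (−0.92 and −0.85). Of 9 mitochondrial translation factor genes 6 rose over controls in WT (28.5% of all genes) and 5 in P278KY mice (28.2%), among them Gfm1 (1.43 and 1.41). Between Cre genotypes edgeR called 0 of them, with 1 at an unadjusted p under 0.05 (16.2% of all genes), and DESeq2 and voom called 0.

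In NoCre libraries the genotype made no detected difference to the factors. By the edgeR test 0 of 52 members were called (0.0233% of all genes were), and 2 had an unadjusted p under 0.05 (6.77% of all genes). DESeq2 and voom also called 0 (0.163% and 0.0175% of all genes). The median log2 fold change of NoCre P278KY over NoCre WT was −0.08. All 7 elongation factor genes had a value below 0, from −0.11 for Eef1a1 to −0.53 for Eefsec, with adjusted p of 0.725 or more. Within pool 1 Eef1a2 (0.33), Eef2 (0.26) and Eef1g (0.04) lay above 0. The lowest and highest values of all members were those of Eif2b4 (−1.05) and Eef2k (0.53). Eif2b4 had 30.9 CPM in NoCre WT replicate 4 against 4.35 to 10.2 in the other NoCre WT libraries, and Eef2k had 36.3 CPM in NoCre P278KY replicate 6 against 6.46 to 15.4 in the others of its group. Of the 12 cholinergic markers 11 had a value below 0 and 1 above (median −0.91). EdgeR called 2 of them lower, DESeq2 6 and voom 1. Their summed levels had medians of 1154 CPM in NoCre P278KY (1117 to 2228) and 2325 in NoCre WT (1960 to 5725). The part of this difference in the comparisons with controls and in the interaction was not tested.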

How the data were processed

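Ribosome-associated mRNA was analysed from 1 gene table for each of 18 spinal cord libraries. The authors deposited RSEM expected counts and TPM per gene, per the file headers. Per the submitters' processing notes the tools were RSEM 1.2.12 with Bowtie2 2.2.0. Build, annotation and strand use: not given in the sources used here. Deposited expected counts were rounded and tested with edgeR 4.0.16 (R 4.3.3, quasi-likelihood, filterByExpr, TMM, two-sided), with Benjamini-Hochberg adjustment over all genes and a threshold of 0.05. Cre genotypes were compared in the 7 Cre libraries (14717 genes tested), and the other comparisons in all 18 (17133 genes). CPM values use the 18-library TMM factors. DESeq2 1.42.0 and voom (limma 3.58.1) were alternatives. Paralog shares of the deposited TPM were tested by exact permutation.

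Groups came from the genotype labels, and replicate numbers follow submission order. The members, lists and alternatives were chosen with earlier results of these data known, and comparisons within pool 2 were added after seeing these files. Named with values were 23 members fixed by symbol, members called between Cre genotypes or in the interaction, the 6 largest rises and falls without overlap in the others, and the lowest and highest of each role. Comparisons share groups and are not independent. Library names differ, but the labels do not state that each is a separate animal, and p-values then measure only the spread between these samples. Gene positions are from GENCODE M21 (GRCm38). Simulated data held 200 changed genes drawn at random from all genes tested, at any level. There edgeR recovered 12% of 2-fold and 70% of 4-fold changes between Cre genotypes, with 5 false calls among 14717 genes. In the interaction it recovered 4% and 45%, with 1 false call among 17133.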

Additional observations from a re-analysis of the deposited data

Results flagged for a closer look

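Eef1a1 was the member whose genotype difference was itself different between Cre and NoCre libraries, by 1.10 on the log2 scale. It was higher in Cre P278KY than in Cre WT (363 against 183 CPM) and not called between the NoCre groups (287 against 310 CPM).

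Among the 168 groups of 4 to 6 libraries examined (52 members in 3 groups and 4 paralog shares in 3 groups), 15 held a library far from the others, or 8.93%. The cut used gives about 1 in 20 for independent, normally distributed values. These values share libraries, so 8.93% is not shown to exceed chance. NoCre P278KY replicate 6 gave 8 of the 15. It was low for Eef1a2 (21.6 CPM, others 42.7 to 54.1), Eif3h (11.0 CPM, others 24.3 to 31.4), Eif3l (5.23 CPM, others 13.9 to 16.9) and the Eif1b share (14.2%, others 22% to 26.1%). The same library was high for Eef2k (36.3 CPM, others 6.46 to 15.4), Eif3a (486 CPM, others 210 to 310), Eif5a2 (105 CPM, others 44.9 to 58.6) and the Eif5a2 share (25.4%, others 15.8% to 19.2%). It held the fewest member counts of the 18 libraries, 15552.

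NoCre WT replicate 4, with 17692 member counts, was high for Eefsec (6.97 CPM, others 2.13 to 2.39), Eif2b4 (30.9 CPM, others 4.35 to 10.2) and Eif4a3 (32.3 CPM, others 8.51 to 13.0). Single libraries also stood apart for Eif4g1 (109 CPM in NoCre WT replicate 5, others 59.0 to 72.7), Eif5b (83.0 CPM in NoCre WT replicate 1, others 115 to 127), Eef1d (16.7 CPM in NoCre P278KY replicate 1, others 21.7 to 24.1) and Eif4a1 (91.7 CPM in Cre WT replicate 2, others 53.1 to 59.5).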

How the results depend on the processing

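Between Cre genotypes 1 member was called in the main test (2.32% of all genes). The count was 0 with library size alone (1.01% of all genes) or library size without mitochondrial rRNA (1.07%). It was 2 with no low-count filter (1.81%), a CPM filter (2.56%), voom (2.21%) or pool 1 alone (9.1%). It was 3 with DESeq2 (6.6%) or pool as a term (11.4%), and 0 to 3 when 1 library was left out (0.621% to 2.23%). With library size without mitochondrial rRNA, Cre over NoCre gave 25 called members in WT (49.6% of all genes) and 21 in P278KY mice (49.5%). The main test gave 40 (59.7%) and 39 (59.4%), and pool 2 gave 21 in WT mice (29.7%). With 1 library left out the counts were 40 to 43 in WT (53.0% to 59.1% of all genes). In P278KY mice they were 37 to 43 (46.2% to 58.8%). The interaction gave 0 with library size alone (0.0292% of all genes), library size without mitochondrial rRNA (0.163%) or no filter (0.309%). It gave 2 within pool 1 (Eef1a1 higher, Eif3h lower, 2.37% of all genes) and 0 to 1 with 1 library left out (0.229% to 1.46%). The NoCre count was 0 under all 23 alternatives, and no followed result changed direction while called. Among the 21 alternatives of the fall of Eef1a1 over controls in WT, the call was lost with library size alone (−0.42) and within pool 2 (−0.73). Its interaction was lost in 7 of 29 alternatives. Library size without mitochondrial rRNA moved the median of all genes from −0.12 to −0.51 in WT and from −0.13 to −0.55 in P278KY mice, and the median member to 0.73 and 0.70.

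A number in the library name is shared across groups and its meaning is not given. Pairs with the same number correlated with a median of −0.0148 (12 pairs, −0.15 to 0.258) against 5.22e-05 for other pairs (107, −0.31 to 0.332). With so few pairs and pool and sex mixed in, this cannot decide whether the number stands for a shared origin. With this number as a replicate block 10 members were called between Cre genotypes (9 higher, 1 lower), among them Eef1a1 (0.95, adjusted p = 0.012). The share called over all genes also rose, to 11.3% against 2.32% in the main test. Among Cre libraries the block rests on the 1 number found in both genotypes. Its 2 Cre P278KY libraries are in pool 1 and its 2 Cre WT libraries in pool 2. Within this number genotype and pool coincide, so the 10 calls cannot be told apart from a pool difference. With the block the enrichments gave 42 members in WT (56.7% of all genes) and 39 in P278KY mice (50.1%). The interaction gave 1 (0.87%) and the NoCre comparison 0 (0.0117%). In simulated data 2-fold changes in genes drawn at random from all those tested were mostly not recovered. The recovery at the levels of the members was not measured. Members not called are not shown to be unchanged.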
